A study of Mus musculus with 16 samples.

Results

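Tibialis anterior muscle was compared between calorie restricted (CR) mice whose dams were undernourished in pregnancy and CR mice whose dams were fed normally. The comparison uses 8 of the 16 arrays of the study, 4 per maternal group, chosen by their labels. Undernourished dams had their food cut by 50% in week 3 of gestation, and control dams had no such cut. Each group had 8 mice whose RNA was pooled in pairs, so that each array holds a pool of 2 mice. The other 8 arrays are the same maternal groups in offspring fed ad libitum (AL). The labels give no strain, age, sex, litter or length of restriction. All the groups compared here were calorie restricted as offspring, so the comparison is of mothers and has no normally fed offspring in it. The tests treat the pools as independent samples. Maternal diet was given to dams, and pups that shared a dam would make the pools less independent than the tests assume.

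Skeletal muscle is the largest store of protein and a main site of glucose and fat use, and it answers food shortage with a known programme. Low insulin frees FoxO transcription factors, which drive the ubiquitin ligases and autophagy genes of muscle wasting, while fatty acids act through PPAR factors to raise genes for fat use, among them Pdk4, which closes the entry of pyruvate into the citrate cycle. Undernutrition before birth is studied because lasting changes in growth factor signalling, imprinted genes and chromatin have been proposed to carry it into adult life. The lists described here cover these routes, the contractile and mitochondrial proteins of muscle, and the other cell types that a piece of muscle holds.

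Levels are log2 processed signals relative to the 75th percentile of all non-control spots on the same array, so a level of 0 is that percentile. Differences are undernourished minus control, and 1 unit is a 2-fold difference. On the 8 CR arrays 74.3% to 78.5% of spots were well above background and none was saturated. Replicates 1 and 2 of both groups shared a slide, called slide 3, and replicates 3 and 4 shared slide 4. All 14 mature muscle markers, such as Acta1 and Ckm, were well above background on all 8 arrays, and their summed level lay between 12.36 and 12.74. Xist, the RNA of the inactive X chromosome, was well above background on all 8 arrays, at -1.82 to -1.27, while probes for the Y genes Ddx3y, Uty and Kdm5d were so on 0 arrays and that for Eif2s3y on 1. In all, 3 pools stood apart in transcripts of other kinds, described further on: undernourished CR replicate 4, undernourished CR replicate 2 and control CR replicate 1.

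No gene differed between the maternal groups after adjustment. Of 24232 genes tested, 0 were higher (0%) and 0 lower (0%) in undernourished CR at an adjusted p under 0.05 in limma's fit with slide as a term. The smallest adjusted p was 0.0754, and the smallest for a gene with a symbol was 0.22. At an unadjusted p under 0.05 there were 1192 genes (4.92%), 642 of them higher (2.65%) and 550 lower (2.27%). The counts of genes by p formed a flat distribution, with between 4.53% and 5.36% of genes in each step of 0.05. The 4 undernourished arrays lay all above the 4 control arrays for 316 genes (1.3%) and all below them for 351 (1.45%). Without undernourished CR replicate 4 the call count was again 0, with 5.6% of genes at an unadjusted p under 0.05, and it was 0 with 3.29% without undernourished CR replicate 2 and 0 with 4.61% without control CR replicate 1.

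The arrays also limit how large a difference could have been missed. The median standard error of a gene's difference was 0.15 and the median half-width of its 95% interval 0.36, not adjusted for the number of genes. That interval lay within 1 unit of 0 on either side for 21967 genes (90.7%), and for 93.8% of the 21965 genes well above background on all 8 arrays. The median size of a difference was 0.12, and 118 genes (0.487%) had a mean difference of more than 1 unit. In a typical gene, differences smaller than this half-width could not be told from 0 with 4 arrays per group, even before adjustment. After adjustment larger ones could not either, such as that of Aurka, described below, at -1.11 (limma, adjusted p = 0.965).

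**Figure D1:**
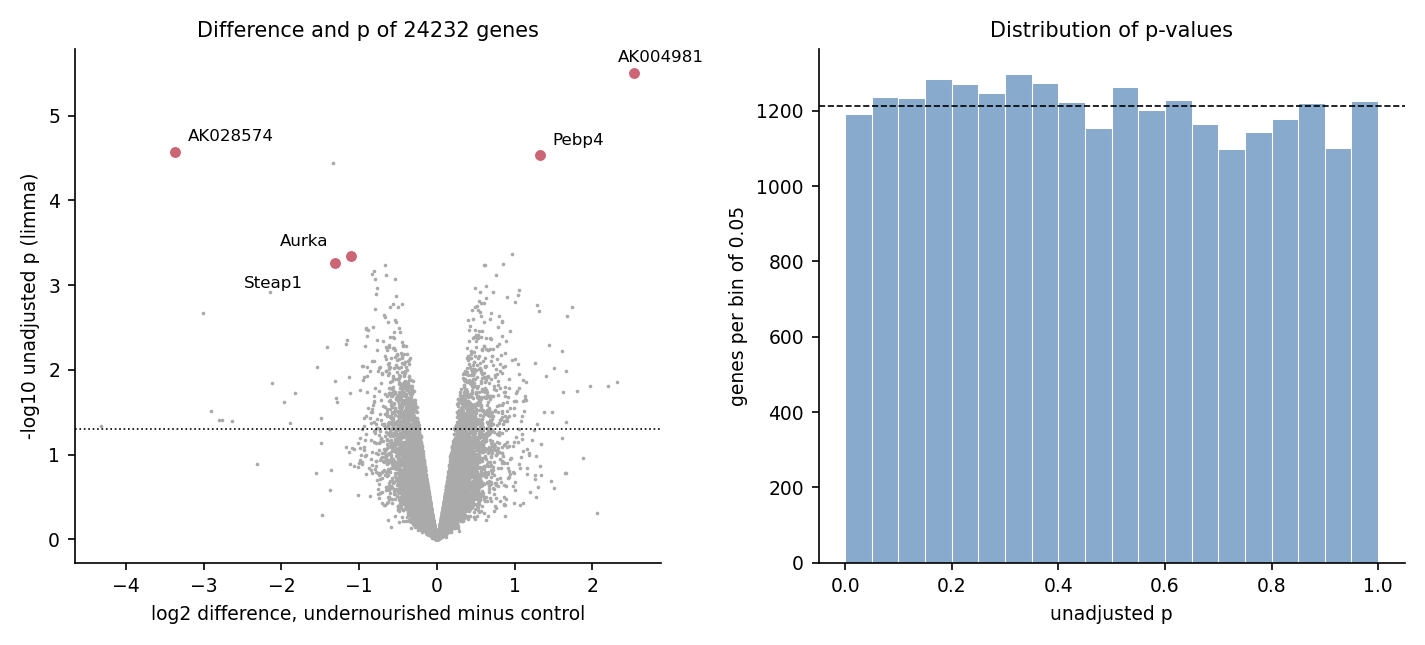
Left, log2 difference (undernourished minus control CR) against -log10 of the unadjusted limma p for 24232 genes, 1 point each, with the dotted line at p of 0.05. Right, the number of genes in each step of 0.05 of unadjusted p, with the dashed line at an equal share per step. The bars run close to the dashed line, and the first bar holds 4.92% of genes.

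The gene with the smallest p, listed under its transcript name AK004981 with no matched symbol, stood at -7.17, -6.34, -5.33 and -5.59 in control CR replicates 1 to 4 and at -4.04, -3.85, -3.43 and -2.95 in undernourished CR. All undernourished arrays lay above all control arrays, and 2 of the 4 control arrays had the probe well above background. The difference was 2.54 ± 0.22 (limma, 4 arrays per group, adjusted p = 0.0754), and with a prior that follows intensity the adjusted p was 0.0421, the only call made in that fit. In AL offspring AK004981 was also higher with undernourished dams, by 1.93 ± 0.48 (limma, 16 arrays with slide, adjusted p = 0.0325). Its maternal difference was not called as differing between CR and AL (limma, adjusted p = 0.722). Without slide in the CR fit AK004981 had an adjusted p of 0.96, and under normexp correction it differed by 0.67. That correction also adds an offset of 50 to each signal, which by itself shrinks the log2 differences of dim genes. Pebp4, of the phosphatidylethanolamine-binding protein family, was at -6.86, -6.48, -6.58 and -6.90 in control CR and at -5.66, -5.41, -5.09 and -5.35 in undernourished CR. Its groups did not overlap on either slide, and the difference was 1.33 ± 0.16, with an interval of 0.97 to 1.69 (limma, adjusted p = 0.22). Only 1 control array had Pebp4 well above background, against 4 undernourished arrays, so that it entered the test through the group where it was high. With normexp background correction the difference of Pebp4 was 0.215, and with all 16 arrays in a fit without slide its adjusted p was 0.024.

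AK028574, also without a matched symbol, ran the other way. It was at -4.31, -5.64, -4.77 and -5.82 in control CR and at -8.92, -7.62, -8.57 and -8.87 in undernourished CR, where it was not well above background on any array. It thus entered the test through its 4 control arrays alone, so a difference was bound to appear. The dim values were then replaced by the lowest signal that counted as well above background. With these replaced values the level of AK028574 was 3.29-fold lower in undernourished CR. This is no strict bound, since spots not well above background can lie above the mean replaced level of -6.85. Pag1 did so in undernourished CR, at -6.63 to -6.47 with 1 of 4 arrays well above background. The measured means of AK028574 were -5.13 and -8.50, and the test was of these (limma, adjusted p = 0.22). Under normexp correction AK028574 differed by -0.44, where the offset shrinks the difference of a dim gene in any case.

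Among genes with a symbol and good signal, Aurka, a kinase of the mitotic spindle, had the smallest p of those lower in undernourished CR. In control CR it was at 2.09, 2.36, 1.79 and 2.51, against 1.09, 1.36, 1.17 and 0.69 in undernourished CR. The lowest control pool was above the highest undernourished pool, and the difference was -1.11 ± 0.20, with an interval of -1.56 to -0.66 (limma, adjusted p = 0.965). On slide 3 it was -0.997 and on slide 4 -1.22. Over the 14 other settings its difference ran from -1.12 to -1.10. The other 23 measured genes of the cell cycle list did not follow it: 17 of the 24 lay above 0, and the median was 0.12, or 0.06 without undernourished CR replicate 4.

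The other genes with the smallest p-values were of mixed function, each at an adjusted p of 0.965 in limma. Higher on average in undernourished CR were Apobec1, the enzyme that edits apolipoprotein B mRNA, by 0.60 ± 0.11, Larp6, which binds collagen mRNAs, by 0.72 ± 0.15, and Zfp667, a zinc finger protein, by 0.49 ± 0.10. Dixdc1 and Cxxc4, both linked to Wnt signalling, differed by 0.52 ± 0.11 and 0.61 ± 0.13. Arhgef3 differed by 0.57 ± 0.12, Tmem117 by 0.54 ± 0.11, and Angptl8, a secreted inhibitor of lipoprotein lipase, by 0.50 ± 0.11. The receptors Olfr94 and Olfr202 and the transcript 4930503L19Rik differed by 0.63 ± 0.13, 1.04 ± 0.22 and 1.06 ± 0.22.

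Lower on average were Steap1, a metalloreductase, by -1.31 ± 0.24, S1pr5, a sphingosine-1-phosphate receptor, by -0.77 ± 0.15, and Orai2, a subunit of store-operated calcium channels, by -0.67 ± 0.12. Dll1, a Notch ligand, differed by -0.50 ± 0.11 at -0.53, -0.45, -0.56 and -0.29 in controls and -1.09, -1.04, -0.88 and -0.80 after undernutrition, with no overlap. Lingo4, Sel1l2, Ppp1r42 and Pgbd5 differed by -0.91, -0.82, -0.54 and -0.52. Tff3, a secreted trefoil peptide, Pag1, an adaptor of Src family kinases, and Defb34, a defensin, differed by -0.63, -0.60 and -0.57. Several of these sat near background: Steap1 was well above it on 2 of the 4 undernourished arrays, Tff3 on 2, Pag1 on 1 of 4, and Olfr202 in 1 control pool. Under normexp correction 16 of the 24 genes with the smallest p in either direction had differences more than 1.5 times smaller. Its offset of 50 shrinks the differences of dim genes in any case, so this is no test of them. Steap1 then differed by -0.21, Orai2 by -0.21, Ppp1r42 by -0.14, Pag1 by -0.10 and Tff3 by -0.09, while Olfr202, Cxxc4 and Olfr94 differed by 0.10, 0.10 and 0.15. The brighter Larp6, Tmem117, Arhgef3 and Dll1 moved little, to 0.69, 0.499, 0.52 and -0.42.

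**Figure D2:**
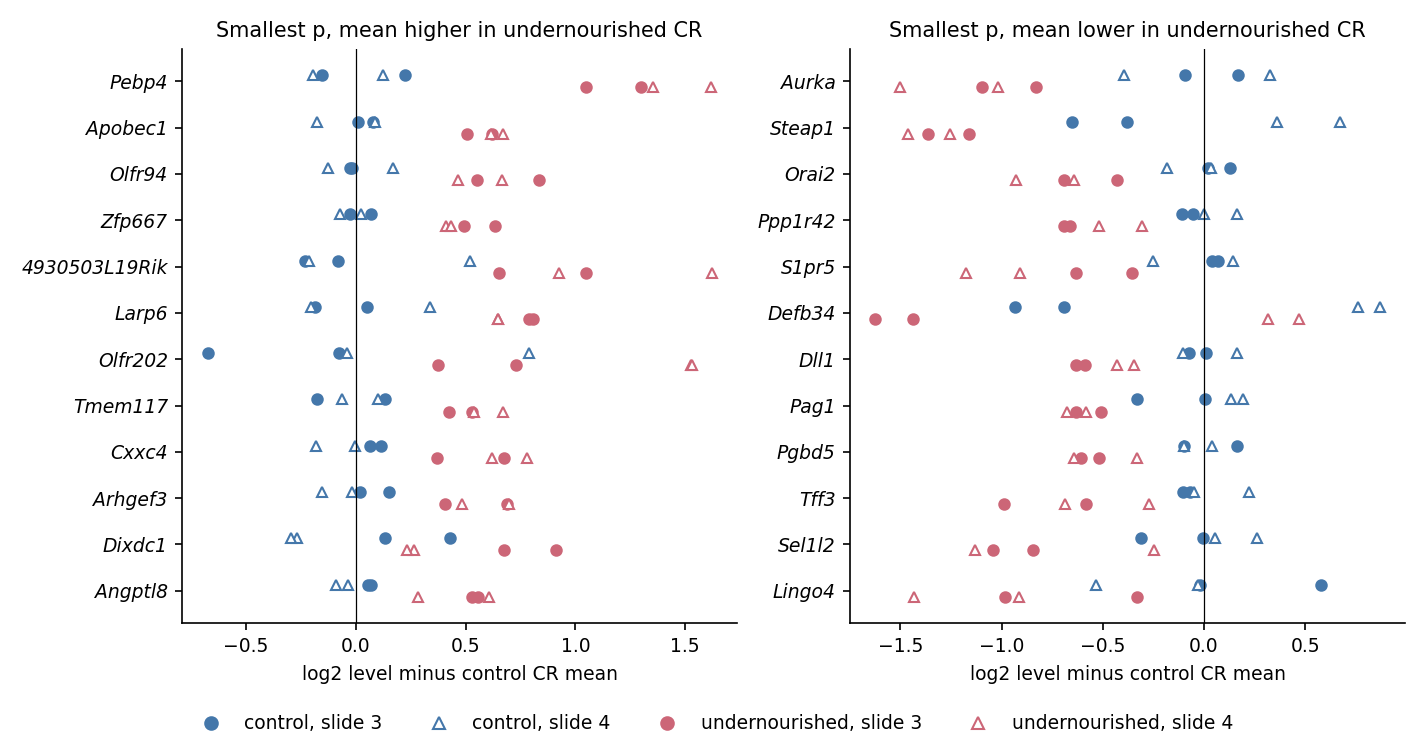
Levels of the 12 genes with the smallest p in each direction on the 8 CR arrays, each minus the control CR mean (log2 units). Blue is control, red is undernourished, filled circles are slide 3 and open triangles slide 4. The groups of Aurka and of Pebp4 do not overlap, those of Defb34 do, and none of these genes passed the adjusted threshold.

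The metabolic lists showed small differences. Of 36 measured genes of respiratory complex I and 41 of complexes II to V, 0 passed the adjusted threshold, their medians were 0.01 and 0.01 against -0.003 for all genes, and the 95% interval of each lay within 1 unit of 0. Cox7b, a subunit of cytochrome c oxidase, was the only one of them at an unadjusted p under 0.05, with -0.26 ± 0.11. The same interval held for all 26 genes of glycolysis, glucose transport and glycogen (median -0.07), for 34 of proteasome (median 0.01) and for 67 of cytosolic ribosomal proteins (median 0.03). Except for glycolysis, these small medians turned in sign when 1 pool was left out. The ribosomal median was -0.09 without undernourished CR replicate 4, with 60 of the 67 genes below 0 against 21 with it, and the medians without that pool were -0.08 for complex I (32 of 36 below 0), -0.04 for complexes II to V (31 of 41) and -0.09 for proteasome (29 of 34). Without control CR replicate 1 they were -0.02 for complex I, -0.01 for complexes II to V and -0.04 for proteasome. Over the 45 lists with more than 1 measured member, the sign of the median turned in 16 without undernourished CR replicate 4, in 9 without undernourished CR replicate 2 and in 11 without control CR replicate 1. For fatty acid oxidation 19 of 20 intervals and for the citrate cycle 25 of 26 lay within 1 unit. Idh1, the cytosolic NADP-dependent isocitrate dehydrogenase, differed by 0.44 ± 0.12 (limma, adjusted p = 0.965), with all undernourished arrays above all control arrays.

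Genes of fat synthesis gave no call. Of 22 measured, 14 differed by more than 0 and 2 (both higher) had an unadjusted p under 0.05, against 4.92% of all genes, with a median of 0.10 that was 0.05 without undernourished CR replicate 4. There were 4 at that threshold without undernourished CR replicate 2. Fasn, fatty acid synthase, was at 4.48, 4.21, 3.78 and 4.02 in control CR and at 5.15, 4.42, 4.47 and 4.24 in undernourished CR, so that the groups overlapped, and it differed by 0.45 ± 0.18 (limma, adjusted p = 0.965). Elovl6, which lengthens its product, was at -1.54, -1.65, -1.90 and -1.37 in control CR and at -0.04, -1.31, -1.41 and -0.93 in undernourished CR. One undernourished pool, replicate 1, was well above the rest, and another lay below the highest control, with a difference of 0.69 ± 0.28. Scd1, the stearoyl-CoA desaturase, differed by 0.70 ± 0.30 at levels of 2.22 to 3.18 in controls and of 2.87 to 3.82 after undernutrition.

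Genes of the fasting response varied widely between pools and did not follow the maternal groups. Pdk4 was at 3.06, 3.97, 7.29 and 7.03 in control CR and at 6.07, 7.36, 3.57 and 6.91 in undernourished CR. Control replicates 1 and 2 and undernourished replicate 3 were low and the other 5 pools high, which gave a difference of 3.19 on slide 3 and -1.92 on slide 4, and 0.64 ± 1.12 in all. Its interval ran from -1.95 to 3.22. Ucp3, the mitochondrial uncoupling protein of muscle, was at -0.14, 0.34, 3.52 and 3.21 in control CR and at 3.11, 1.86, 0.49 and 1.49 in undernourished CR, with its lowest pools the same as those of Pdk4. G0s2, an inhibitor of the lipase that frees stored fat, was at 3.30, 3.13, 0.83 and 1.46 in control CR and at 2.90, 3.10, 2.82 and 2.82 in undernourished CR, with control replicates 3 and 4 low. Of the 25 measured genes of the list 16 lay above 0 and 9 below, with a median of 0.03, 0.25 on slide 3 and -0.18 on slide 4. That median was -0.10 without undernourished CR replicate 2 and -0.13 without control CR replicate 1. Ppara, a PPAR factor itself, differed by -0.51 ± 0.28.

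Genes of muscle atrophy and FoxO targets had positive differences for 23 of 26 members, with a median of 0.19, 0.23 on slide 3 and 0.16 on slide 4. This varied with the pools: without undernourished CR replicate 4 the median was 0.05 with 15 of 26 above 0, and without undernourished CR replicate 2 it was 0.06 with 20 above 0. Without control CR replicate 1 the median was 0.12 with 19 above 0. In control CR the ubiquitin ligase gene Fbxo32 was at 3.78, 4.999, 6.12 and 5.42, and in undernourished CR it was at 4.52, 6.34, 4.42 and 6.96. Trim63, the other ligase that marks wasting muscle, was at 5.22, 5.74, 6.90 and 6.13 in control CR and at 5.87, 7.41, 5.64 and 6.89 in undernourished CR. The groups overlapped for both, at differences of 0.48 ± 0.64 and 0.45 ± 0.47.

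Sesn1, a stress protein that restrains mTORC1, was at 5.40 and 5.64 in undernourished replicates 2 and 4 and between 3.02 and 3.96 in the other 6 pools. The metallothionein genes Mt1 and Mt2, which bind zinc and copper, were high in these pools too, Mt2 at 5.04 and 6.54 against 1.63 to 3.37 elsewhere. Sesn3 alone of the list had an unadjusted p under 0.05, with 0.50 ± 0.15 and all undernourished pools above all control pools. Among glucocorticoid targets Hsd11b1, the enzyme that regenerates active glucocorticoid, differed by 0.41 ± 0.13, and Tsc22d3 by -0.35 ± 0.18, and the 18 measured members had a median of 0.10. Without undernourished CR replicate 4 that median was -0.07, with 4 of the 18 above 0 against 13 with it, and without undernourished CR replicate 2 it was -0.01.

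**Figure D3:**
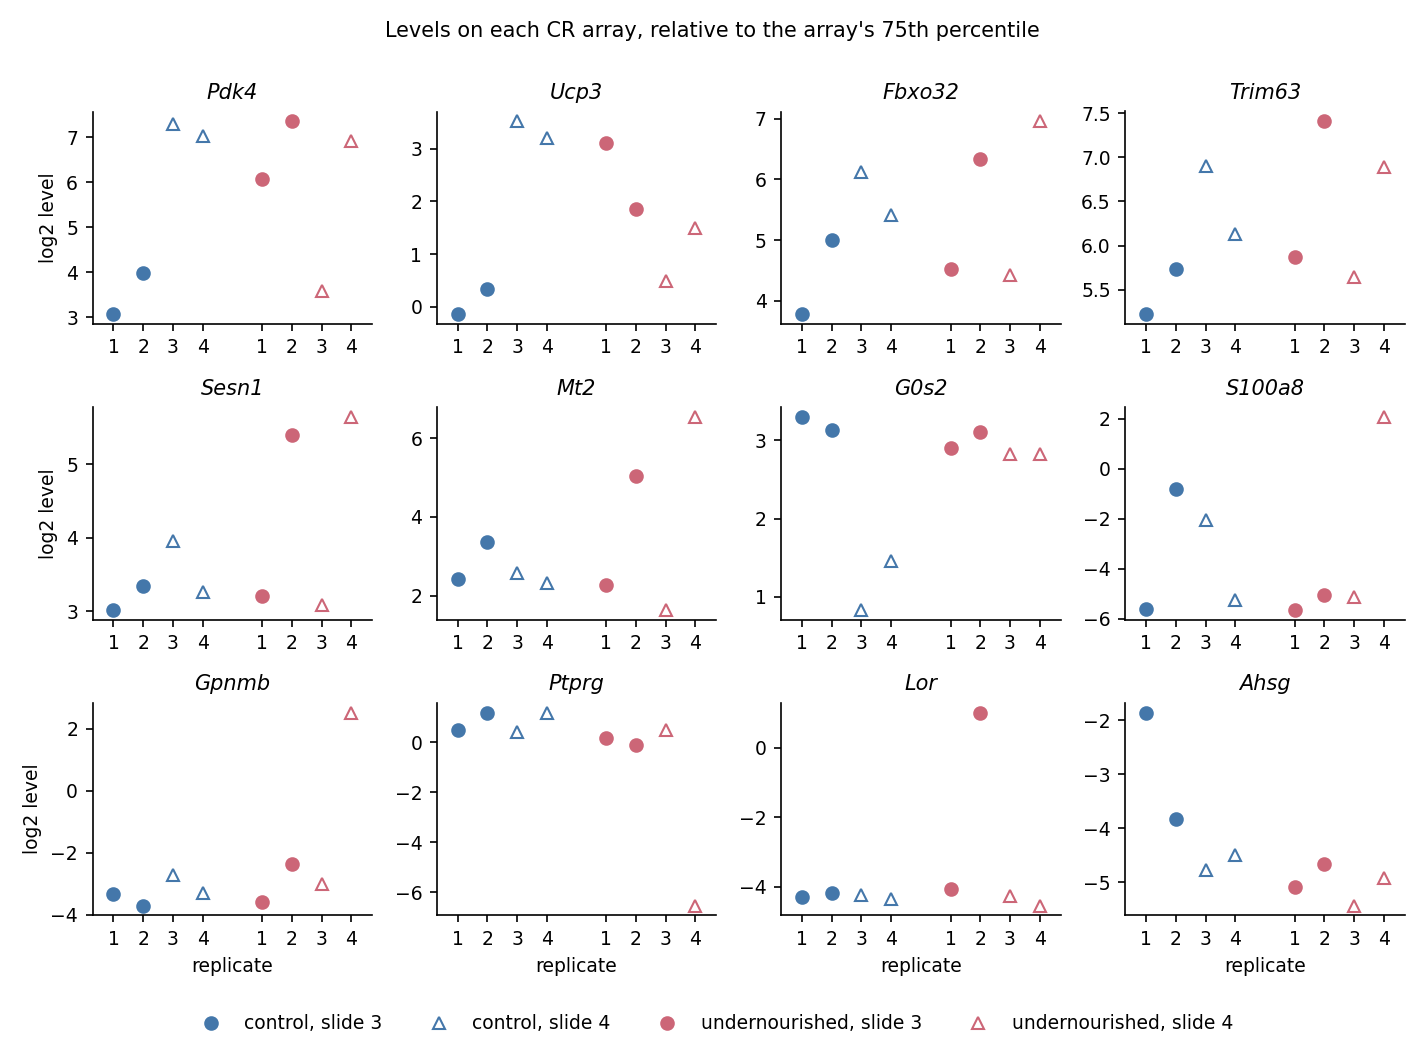
Log2 level of 12 genes on each CR array, control in blue and undernourished in red, filled circles for slide 3 and open triangles for slide 4. Pdk4 spans 3.06 to 7.29 in control and 3.57 to 7.36 in undernourished CR, and S100a8, Gpnmb, Ptprg, Lor and Ahsg are each set apart by 1 pool, or for S100a8 by 3.

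Growth and epigenetic genes were close between the groups. Of 26 measured genes of insulin and IGF signalling, 13 lay on each side of 0 (median 0.005), and Irs1, the insulin receptor substrate, was the only one at an unadjusted p under 0.05, with 4.42, 4.39, 5.24 and 4.99 in control CR against 4.65, 3.88, 4.15 and 3.99 in undernourished CR (difference -0.59 ± 0.23). Igf2, the imprinted fetal growth factor, differed by -0.12 ± 0.13, with an interval of -0.43 to 0.19. Of 18 measured imprinted genes 0 had an unadjusted p under 0.05, against a share of 4.92% over all genes. Their differences ran from -1.36 to 0.25. Impact and Mest had the smallest p-values among them, at -0.47 ± 0.26 and -0.18 ± 0.11. For enzymes of DNA methylation, demethylation and histone marks 17 of 20 differences were below 0, with a median of -0.15 and a range of -0.35 to 0.13, and 0 members had an unadjusted p under 0.05. Its median kept that sign on both slides (-0.10 and -0.14) and without each of the 3 pools that stood apart (-0.16 to -0.10). Dnmt3a, a de novo DNA methyltransferase, and its cofactor Dnmt3l had the smallest p-values, with -0.35 ± 0.16 each. Further probes for Dnmt3a gave 0.02 ± 0.12 and -0.17 ± 0.17.

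Clock and contractile genes gave no call. Per2, a repressor of the clock, was at 0.91, 0.82, 0.72 and 0.71 in control CR and at 0.70, 0.41, 0.39 and 0.25 in undernourished CR, where all pools lay lower, with a difference of -0.36 ± 0.11 (limma, adjusted p = 0.965). Nr1d1, a repressor of another arm of the clock, differed by 0.86 ± 0.35 with groups that overlapped, and the clock output gene Dbp by -0.04 ± 0.26. Fast fibre genes lay below 0 for 15 of 17 members, with a median of -0.09, and the smallest p-values were those of Tnnc2, the fast troponin C, at -0.33 ± 0.24 and Casq1, the calcium store protein calsequestrin, at -0.32 ± 0.25. Without undernourished CR replicate 4 the fast fibre median was -0.03 with 11 of 17 below 0, and without undernourished CR replicate 2 it was -0.04 with 9 below 0. In the slow fibre list Tnni1, slow troponin I, differed by -0.50 ± 0.25 and Ankrd2, a stretch-responsive protein, by 0.90 ± 0.43.

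Myod1 and Myog, the factors that start muscle differentiation, differed by -0.72 ± 0.34 and -0.56 ± 0.27, with intervals of -1.51 to 0.06 and -1.18 to 0.06. Dok7, which activates the receptor kinase of the neuromuscular junction, differed by -0.47 ± 0.18. The coactivator of mitochondrial genes Ppargc1a differed by -0.36 ± 0.34, and Mafa, a large Maf factor, by -0.08 ± 0.17.

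Stress and immune lists gave no adjusted call and differed in how many members had an unadjusted p under 0.05, a threshold that 4.92% of all genes passed. Of the antioxidant and NRF2 targets 0 of 20 did, and of MHC and antigen presentation 0 of 13. Of 22 immediate early genes, which respond within minutes to stimulation, 2 were higher and 4 lower at that threshold, with a median of -0.16. These were 2 higher and 7 lower without undernourished CR replicate 4. The members are named here after their values were seen. Ccn1 differed by 0.51 ± 0.13 and Egr1 by 1.01, while Nr4a2, Nr4a1, Jund and Atf3 differed by -0.74, -0.61, -0.39 and -0.85. The heat shock genes Hspa1a, Hspa1b and Dnaja1 differed by -0.67, -0.73 and -0.39, and the other 17 of that list had larger p-values. Hspa1b was also named after its value was seen, and without undernourished CR replicate 2 the list had 0 members at that threshold. The interferon-stimulated list had 2 of 23 members higher there and a median of 0.11. It had 5 higher and a median of 0.28 without undernourished CR replicate 4, and 1 higher and a median of 0.01 without undernourished CR replicate 2. The interferon-stimulated genes Ifih1, an RNA sensor, and Irf9 differed by 0.38 ± 0.10 and 0.34 ± 0.14, but a further probe of each gave -0.26 ± 0.17 and -0.17 ± 0.21. Of the amino acid stress genes under ATF4, Aldh1l2 and Trib3 differed by 0.38 ± 0.13 and 0.55 ± 0.20, and a further probe for Aldh1l2 gave -0.08 ± 0.14. Over all 874 genes measured in the lists, 33 (3.78%) had an unadjusted p under 0.05, a share below that of all genes.

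Leukocyte and macrophage markers were the marker list with the most members at an unadjusted p under 0.05. Of 22 measured, 17 lay above 0, and 5 were higher and 0 lower at that threshold, which 2.65% of all genes passed upward and 2.27% downward. The median was 0.29, which was 0.06 on slide 3 and 0.55 on slide 4. Their summed level ran from 2.29 to 2.70 in control CR and from 2.47 to 3.89 in undernourished CR. Lyz2, lysozyme, was at -3.24, -3.70, -3.45 and -3.11 in control CR against -3.15, -3.22, -2.68 and -2.31 in undernourished CR, with some overlap, and differed by 0.54 ± 0.18. Ptprc, the pan-leukocyte phosphatase CD45, differed by 0.40 ± 0.15 and the macrophage genes Adgre1, Mrc1 and Ctss, named after their values were seen, by 0.43, 0.45 and 0.57. Without undernourished CR replicate 4 the list had 3 members higher and 1 lower at that threshold, and without undernourished CR replicate 2 it had 1 higher and 0 lower, while without control CR replicate 1 it had 7 higher and 0 lower. In such bulk samples more cells of a type and more RNA per cell cannot be told apart.

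Endothelial markers lay below 0 for 13 of 16 members (median -0.07, or -0.03 without undernourished CR replicate 4) and smooth muscle and pericyte markers for 12 of 14 (median -0.14). Sox18, an endothelial transcription factor, differed by -0.59 ± 0.20 and Robo4 by -0.21 ± 0.10. Of the pericyte genes Pdgfrb differed by 0.39 ± 0.15, against the direction of its list, and Mcam by -0.28 ± 0.14. The erythrocyte gene Hba-a1, a globin, reached 6.94 in undernourished CR replicate 4, while the other 7 pools lay between 5.20 and 6.31. Syn1, a synaptic vesicle protein of the brain list, was at 2.19, 1.87, 2.11 and 1.79 in control CR against 0.76, 1.64, 1.08 and 1.41 in undernourished CR, a difference of -0.77 ± 0.21, while the 11 measured brain markers had a median of -0.03.

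**Figure D4:**
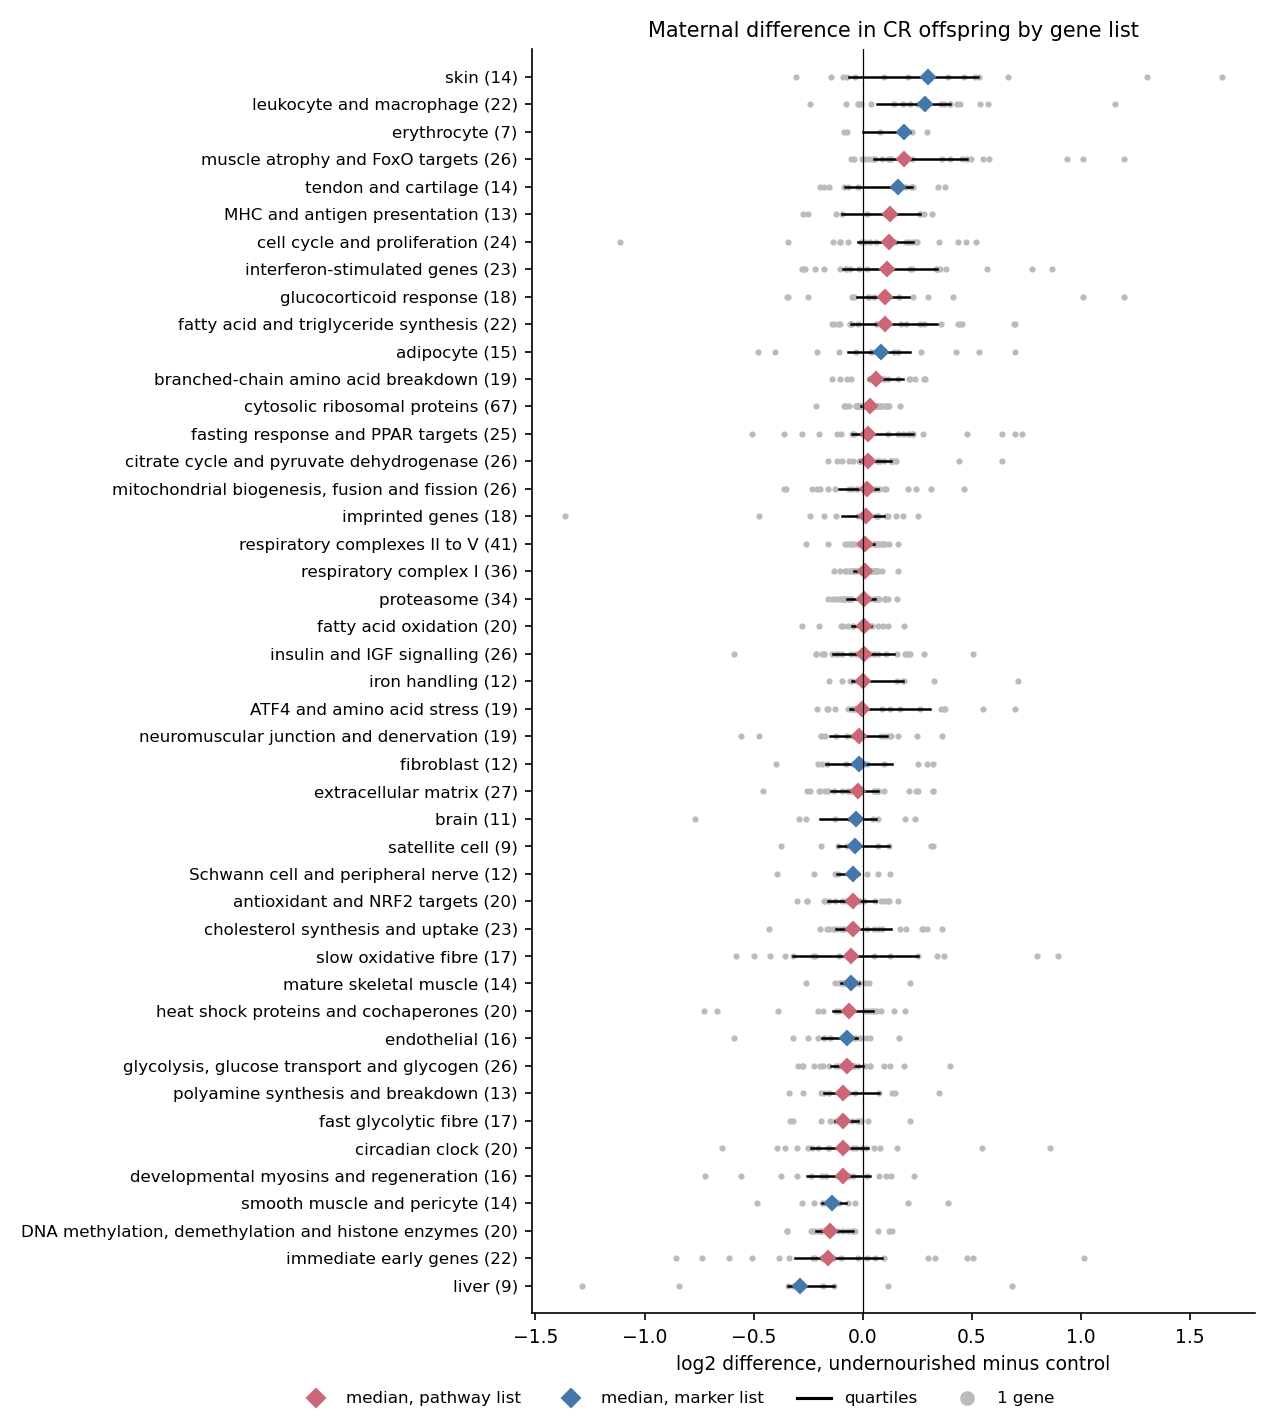
Log2 difference (undernourished minus control CR) of each measured member of 45 gene lists (grey points, number of members in brackets), with the quartiles as a line and the median as a diamond, red for pathways and blue for cell type markers. List medians lay between -0.29 for liver and 0.30 for skin, and all 67 ribosomal protein genes lay between -0.21 and 0.17.

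A few pools carried transcripts that were scarce in the others, by values chosen after they were seen. Undernourished CR replicate 4 stood at 70.5 on the first principal component (30.2% of the variance), where the other 7 arrays lay between -28.8 and 4.15, and its median correlation with the other arrays was 0.985 against 0.989 to 0.991. There Gpnmb, a glycoprotein of macrophages and of denervated or damaged muscle, was at 2.52 against -3.71 to -2.36 in the other 7 pools. S100a8, a neutrophil calcium-binding protein, was at 2.08 there, at -0.78 and -2.02 in control replicates 2 and 3 and between -5.64 and -5.02 in the remaining 5. Ptprg, a receptor phosphatase, was at -6.54 in that pool and between -0.11 and 1.19 in the others.

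In undernourished CR replicate 2 the skin gene Lor, loricrin, was at 1.01 against -4.55 to -4.06 elsewhere, and Krt15, a basal keratin, at -1.20 against -7.31 to -6.30. The median of the 14 measured skin markers was -1.57 in that pool and between -3.85 and -3.17 in the others, and without it the skin list's difference of 0.30 was -0.03. In control CR replicate 1 the liver secretory gene Ahsg was at -1.86 against -5.44 to -3.84 in the other pools. The median difference of the 9 measured liver markers was -0.29, and -0.11 without that pool. What part these transcripts had in the differences above was not tested beyond leaving the pools out.

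The slides were then taken 1 at a time, since each held 2 pools of both groups. On slide 3 alone 0 genes (0%) and on slide 4 alone 0 genes (0%) differed at an adjusted p under 0.05 in limma, with smallest adjusted p-values of 0.479 and 0.622, and 3.69% and 5.87% of genes at an unadjusted p under 0.05. No gene was called for a maternal difference that differed between the slides (0%, smallest adjusted p 0.608, 4.41% at an unadjusted p under 0.05). With 2 pools of each group per slide wide gaps went uncalled, such as that of G0s2, at -0.22 on slide 3 and 1.68 on slide 4. Arrays of undernourished CR were above those of control CR within both slides for 645 genes (2.66%) and below for 687 (2.84%). Levels also differed between the slides, with 291 genes higher (1.2%) and 37 lower (0.153%) on slide 4. The slides held different pools, so slide and pools cannot be told apart in this. These 328 calls fell to 6, 8 or 10 without control CR replicate 4, 3 or 1, and to 75, 94, 96 or 185 without undernourished replicate 1, control replicate 2, undernourished replicate 3 or undernourished replicate 2.

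The same maternal contrast in AL offspring gave many more calls. Median levels of brain markers were higher on the AL arrays than on the CR arrays, and those of skin markers on some of them. In a fit of all 16 arrays with slide, 396 genes were higher (1.63%) and 1238 lower (5.11%) in undernourished AL, and 22.4% had an unadjusted p under 0.05. For the AL arrays slide means a shared scan time, which was checked against slide barcodes for the CR arrays only. Without slide in that fit 8 were called, and leaving out single AL or CR arrays gave 56 (without control AL replicate 1) to 2170 (without control AL replicate 4). The median level of the 11 measured brain markers was -1.18 to 1.34 on the control AL arrays, -1.45 to -0.62 on the undernourished AL arrays and -3.42 to -2.28 on the CR arrays. That of the 14 skin markers was -2.70 to 1.56, -3.32 to -1.77 and -3.85 to -1.57. Median differences of these lists were -1.24 and -2.82 in AL against -0.03 and 0.30 in CR, and the part of this in the AL calls was not tested. The median size of a gene's maternal difference was 0.21 in AL and 0.12 in CR.

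The maternal difference itself differed between CR and AL offspring for 9 genes, 7 with a higher (0.0289%) and 2 with a lower difference (0.00825%) in CR, at adjusted p-values of 0.0353 to 0.0438 in limma. Marchf1, a ubiquitin ligase of antigen-presenting cells, was at -1.33, -1.56, -2.49 and -2.69 in control AL and at -3.15, -2.55, -3.48 and -3.87 in undernourished AL. In CR it was at -5.57, -5.11, -5.23 and -4.94 in control and at -5.16, -4.56, -4.07 and -3.86 in undernourished offspring. The undernourished pools thus tended to be low in AL and high in CR, by -1.24 ± 0.20 and 0.80 ± 0.21, and the difference of these was 2.04 ± 0.29. P2ry12, the ADP receptor typical of microglia in brain, ran the same way, with -1.48 ± 0.24 in AL and 0.84 ± 0.20 in CR, and only 1 control CR array had it well above background.

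The other genes described differed from each other in CR. Sptlc3, a subunit of the enzyme that starts sphingolipid synthesis, differed by 0.13 ± 0.20 in CR. In undernourished AL it was not well above background on any array, and was 1.11-fold lower there after the same replacement of dim values. Gpr26, a receptor of the brain, differed by -2.15 ± 0.27 in AL and 0.63 ± 0.29 in CR, values that rest on dim signals, since it was well above background on 2 of the 4 arrays of control CR, of undernourished CR and of undernourished AL. Krt76, a keratin, differed by -0.04 ± 0.16 in CR and was not well above background on any AL array. AK028574 was well above background on 4 control CR arrays, 0 undernourished CR arrays and 1 AL array, so its difference in CR was bound to appear. Krt76 and AK028574 are the 2 genes counted as having a lower difference in CR, and their levels in AL were thus near background on all or all but 1 of the arrays. Normexp correction shrinks the differences of dim genes in any case through its offset. Under it the difference in CR minus that in AL was 0.91 for Marchf1, 0.54 for P2ry12, 0.57 for Gpr26 and 0.26 for Sptlc3. Counts of such genes ranged from 0, for example without control CR replicate 1, to 731 without undernourished AL replicate 3, and 592 were called without control AL replicate 4. They were 0 with normexp correction, with no filter on dim probes, with probes well above background on all 8 CR arrays only, and in the authors' deposited table.

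**Figure D5:**
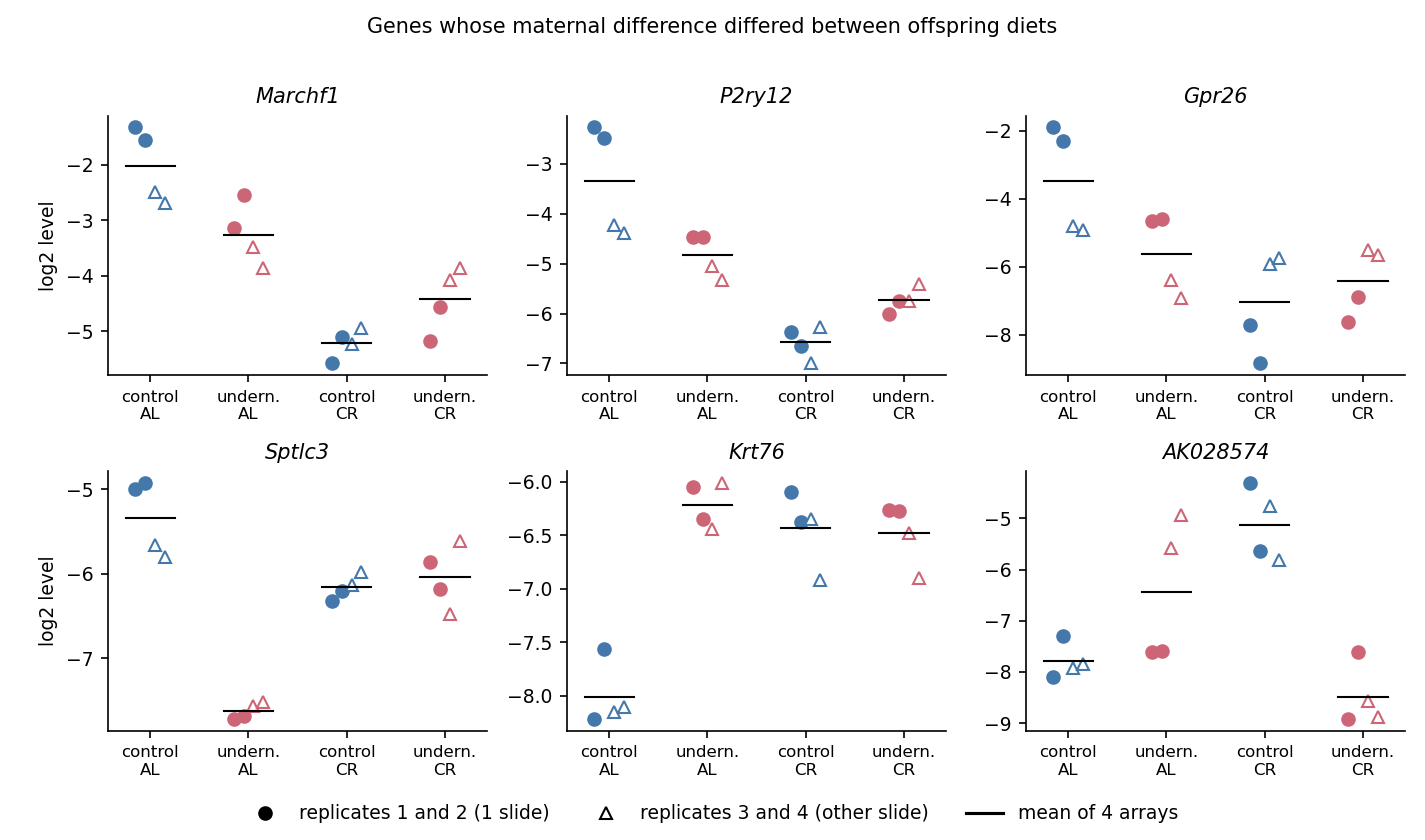
Log2 level of 6 genes whose maternal difference differed between CR and AL offspring on all 16 arrays, control in blue and undernourished in red, with the mean of 4 arrays as a line. In Marchf1 and P2ry12 the undernourished mean is below control in AL and above it in CR, while the CR means of Sptlc3 and Krt76 differ by 0.13 and -0.04.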

How the data were processed

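Per the labels' protocols, DNase-treated total RNA of each pool (200 ng) was labelled with Cy3 and hybridised to a 1-colour Agilent mouse array. Scanner files came from Agilent Feature Extraction 10.5.1.1, per the submitters' processing notes. The deposited intensity is the processed signal in green, background-subtracted and unscaled across arrays per the file headers. Flags of 0 or 1 and other values of each spot stand beside it in the deposited files. The authors' deposited log2 table served as an alternative; its method was not given in the sources used here.

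Of the 45018 spots, controls and 53 to 176 outliers per array were dropped, which leaves 1 value missing in 90 genes, and repeated spots were averaged. On the log2 scale, each array's 75th percentile was then subtracted. In all, 31280 probes passed the filter of being well above background on at least 4 of the 8 CR arrays, and the brightest on average stood for its gene. Names come from RefSeq accessions matched to NCBI's annotation of GRCm38.p6: 24844 of 41174 probes matched, and the others keep the file's name. Of 31 further probes of the genes named, 4 had the opposite sign.

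Groups were compared in limma 3.58.1 (R 4.3.3), with slide as a term, two-sided, with Benjamini-Hochberg adjustment over all genes tested. Errors after ± are standard errors, and p-values set a difference against the spread between pools that is left after group and slide, moderated over genes by limma. The fits were tested on simulated data. The genes named are the 12 smallest p-values in each direction with the same sign on both slides, up to 2 members of each list, 12 genes chosen for their role, and those whose maternal difference differed between CR and AL; any others were named after their values were seen. The 46 gene lists, the members and the rules were chosen with earlier results of these data known. Alternatives covered scaling, background correction, probe filters, the prior, the treatment of slide and leaving out each array. No sequence is printed, since no gene passed the test.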

Additional observations from a re-analysis of the deposited data

Results flagged for a closer look

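Among 286 groups of 4 arrays checked for an array far from the other 3 by Dixon's test, 13 held one. Chance gives about 1 in 20, so the count as a whole is no more than chance would give. S100a8, Ptprg, Lor and Mrc1 were named after their values were seen, so their flags are no independent evidence. Undernourished CR replicate 4 stood apart for S100a8 (2.08), Ptprg (-6.54) and the globin gene Hba-a1 (6.94), and in the median level of the brain list (-2.27) and the erythrocyte list (1.95). Undernourished CR replicate 2 stood apart for the skin genes Krt15 (-1.20) and Lor (1.01), and undernourished CR replicate 3 for the macrophage gene Mrc1 (-0.63). Of the control pools, replicate 4 was high for Tff3 (-5.83) and replicate 3 low in the median of the skin list (-3.85). Control CR replicate 1 stood apart in the medians of developmental myosins and regeneration (1.57) and of respiratory complexes II to V (7.22), and control CR replicate 2 in that of polyamine synthesis and breakdown (2.63).

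The maternal difference differed between CR and AL offspring, by limma's interaction contrast, for 9 genes. The difference in CR minus that in AL was 2.04 for Marchf1, 2.32 for P2ry12, 2.78 for Gpr26 and 2.41 for Sptlc3, and -1.84 for Krt76 and -4.72 for AK028574. Of these, Krt76 was well above background on 0 of the 8 AL arrays and AK028574 on 1 AL and 0 undernourished CR arrays, so that both sizes rest on values not above background and are no measured difference. Under normexp correction the 6 values were 0.91, 0.54, 0.57, 0.26, -0.24 and -0.63.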

How the results depend on the processing

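The maternal difference in CR gave 0 calls under 20 of 22 other settings. It gave 1 with a trended robust prior (AK004981, adjusted p = 0.0421) and 1 with all 16 arrays and no slide term (Pebp4, adjusted p = 0.024), and 0 to 0 when each array was left out, with 3.29% to 7.48% of genes at an unadjusted p under 0.05. With the replicate number as a block the count was 0 (smallest adjusted p 0.347). The labels do not say that the numbers pair the pools, and same-numbered pools correlated at 0.235, 0.117, 0.016 and 0.068. Leaving out 1 array gave 0 to 5 calls on slide 3, 0 to 12 on slide 4 and 0 to 1 for the difference between slides, where a lone array is assumed to vary like the others.

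The slide difference of 328 genes was 515 with normexp, 208 with the trended prior and 6 to 305 without 1 array. The 1634 calls in AL were 8 without slide and 56 to 2170 without 1 array. The 9 genes that differed between CR and AL were 0 with normexp, no filter, the filter on all 8 arrays or the authors' deposited table, 1 without slide (Sptlc3), and 0 to 731 without 1 array. None of these causes was tested.

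Some small, uncalled differences changed sign. Krt76 was at 0.0378 with normexp and 0.0064 in the authors' deposited table, S100a8 at 0.313, 0.207 and, under quantile normalization, 0.0011, and Ucp3 at -0.0039 with normexp and -0.0071 after median centring. Without 1 array Dbp ran from -0.295 to 0.0901, Krt76 from -0.153 to 0.0725, Mafa from -0.175 to 0.0311, Pdk4 from -0.13 to 1.82, S100a8 from -1.88 to 1.38, Sptlc3 from -0.0255 to 0.323, Ucp3 from -0.72 to 0.68 and Xist from -0.0215 to 0.197. The normexp setting used median spot signals, with local backgrounds capped at the 99th percentile of an array and an offset of 50 added. The offset by itself shrinks the log2 differences of dim genes.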
